A study of Mus musculus with 12 samples.

Results

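The proteasome subunit genes of the mouse retina were followed through whole-retina RNA of 5xFAD and WT animals at 1 and 6 months of age. The members are the protein-coding genes whose symbol in the GENCODE M21 annotation begins with Psma, Psmb, Psmc or Psmd and continues with a digit, and 40 of the 55487 genes in the deposited gene table met this rule. They comprise 7 alpha ring subunits, 4 beta ring subunits without a protease site, 3 catalytic beta subunits, 3 immune catalytic subunits, 6 ATPases of the cap base, 3 base subunits that are not ATPases, 8 lid subunits, 3 chaperones of base assembly (Psmd5, Psmd9 and Psmd10), and 2 core subunits restricted to other tissues (Psma8 in testis, Psmb11 in thymus). The last of the 40, Psmc3ip, is a meiotic recombination cofactor that shares only its symbol with the family. Cap subunits with other symbols, Adrm1 and Sem1, are not members.

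5xFAD retinas came from mice with the strain label Tg6799, a model of Alzheimer disease that carries mutant human APP among its transgenes, driven by the neuronal Thy1 promoter. WT retinas came from C57BL/6J mice, and no other allele or treatment is labelled for either genotype. Each genotype was sampled at 1 and 6 months with 3 libraries per group, 12 in all, from an unstranded preparation of polyadenylated RNA. The study set out to compare transcript and retained-intron levels between the genotypes. The labels do not say whether libraries came from separate animals or how many retinas were pooled, so p-values measure only the spread between samples, which may be technical.

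The proteasome is the protease that degrades proteins tagged with ubiquitin. Its barrel-shaped core (20S) is built of stacked alpha and beta rings with the active sites of Psmb5, Psmb6 and Psmb7 facing inward, and its cap (19S) binds ubiquitin chains, removes them and threads the substrate into the core with a ring of ATPases. In cells exposed to interferon the immune subunits Psmb8, Psmb9 and Psmb10 replace the constitutive catalytic subunits during assembly. In the retina the proteasome is known for clearing misfolded photoreceptor proteins, and in mammalian cells the transcription factor Nfe2l1 raises subunit genes together when proteasome activity falls.

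Promoter sequence was compared among members because many of them moved together across the groups, as described below. RefSeq promoters on GRCm38.p6, from 250 bases before to 50 bases after the gene start, were matched by symbol for 33 of the 40 members. The core of the antioxidant response element through which Nfe2l1 and its relatives act was searched as TGACNNNGC on both strands. It was found in 5 of the 33 members (Psmb5, Psmb6, Psmc6, Psmd9 and Psmd12), or 15.2%, against 14% of the promoters of all 27025 genes of the table. The CCAAT box was found in 14 members, or 42.4%, against 41.1% of all genes. The interferon-stimulated core, GAAA then NN then GAAA, was found in 3 members (Psmb3, Psmd4 and Psmd9), or 9.09%, against 3.99% of all genes. None of the 3 immune catalytic genes held it. The gamma-activated site TTCNNNGAA was found in 2 members (Psmb8 and Psmd2), or 6.06%, against 9.55%. Matches on either strand were counted, and a match describes letters and not a bound site.

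The sequence from 250 to 31 bases before the gene start is shown, 5′ to 3′ along the gene, for 5 members whose genotype difference changed between the ages and whose window overlaps no annotated exon. On GRCm38.p6 they lie at Psmb4 chr3:94886989-94887208 on the minus strand, Psmb5 chr14:54618026-54618245 on the minus strand, Psmc4 chr7:28050123-28050342 on the minus strand, Psmd14 chr2:61711444-61711663 on the plus strand and Psma3 chr12:70974373-70974592 on the plus strand. Capitals mark the antioxidant core in Psmb5, the CCAAT box in Psma3 and its reverse complement in Psmd14. The windows of Psmb4 and Psmc4 hold neither string.
Psmb4: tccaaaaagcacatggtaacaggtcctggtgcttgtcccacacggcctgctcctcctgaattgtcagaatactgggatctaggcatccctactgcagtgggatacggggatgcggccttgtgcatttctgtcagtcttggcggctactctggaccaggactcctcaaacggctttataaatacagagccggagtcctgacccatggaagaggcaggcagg
Psmb5: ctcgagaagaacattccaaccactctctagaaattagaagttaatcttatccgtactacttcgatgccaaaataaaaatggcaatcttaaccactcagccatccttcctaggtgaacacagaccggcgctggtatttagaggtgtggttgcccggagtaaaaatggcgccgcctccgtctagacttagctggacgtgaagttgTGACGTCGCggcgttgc
Psmc4: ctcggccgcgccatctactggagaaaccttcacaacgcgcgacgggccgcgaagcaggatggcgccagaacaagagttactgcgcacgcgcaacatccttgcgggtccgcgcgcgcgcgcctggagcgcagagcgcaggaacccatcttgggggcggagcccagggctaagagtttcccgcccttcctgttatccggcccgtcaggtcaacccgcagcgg
Psmd14: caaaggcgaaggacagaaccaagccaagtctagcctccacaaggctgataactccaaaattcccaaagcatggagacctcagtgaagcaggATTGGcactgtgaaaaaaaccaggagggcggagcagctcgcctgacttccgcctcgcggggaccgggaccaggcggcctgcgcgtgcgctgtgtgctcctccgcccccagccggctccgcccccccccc
Psma3: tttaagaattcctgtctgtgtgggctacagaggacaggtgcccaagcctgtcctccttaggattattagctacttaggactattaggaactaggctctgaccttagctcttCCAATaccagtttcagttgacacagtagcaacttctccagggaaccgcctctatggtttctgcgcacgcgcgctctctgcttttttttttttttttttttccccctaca

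The counts of a library summed to between 10928031 and 19552537. The members took 0.206 to 0.218% of the counts of 5xFAD libraries at 1 month, against 0.260 to 0.271% in WT at 1 month, and 0.267 to 0.275% in 5xFAD at 6 months, against 0.225 to 0.263% in WT at 6 months. Within WT at 6 months, replicates 1 and 2 lay at 0.225 and 0.227% and replicate 3 stood apart at 0.263%. The mean length of the transcripts behind a count, a property of the whole library, moved with these shares: it was 4195 to 4226 bases in 5xFAD at 1 month, against 3580 to 3790 bases in WT at 1 month, and 3632 to 3730 bases in 5xFAD at 6 months, against 4013, 4019 and 3700 bases in WT at 6 months. Levels in CPM are counts scaled to a common library total, after each total was adjusted by the edgeR scaling factor (TMM). All listed markers of rods, cones, bipolar, amacrine, horizontal, ganglion and Muller cells averaged at least 1 CPM in every group. Summed over each of 15 marker lists, 5xFAD and WT libraries did not overlap for 7 lists at 1 month (rod, bipolar and lens higher, and cone, microglia, pigment epithelium and muscle lower, in 5xFAD) and for 6 at 6 months (rod, cone and red cells higher, and bipolar, amacrine and Muller lower, in 5xFAD). Of all single genes tested, 18.7% were higher and 18.9% lower in 5xFAD without overlap at 1 month. At 6 months these shares were 11.4% and 12.8%. Mitochondrial counts also moved, with 2.95 to 3.16% in 5xFAD at 1 month, against 4.23 to 5.85% in WT, and 5.02 to 5.11% in 5xFAD at 6 months, against 5.68 to 6.70% in WT. Rod markers (4 genes) summed to 48560 to 52160 CPM in 5xFAD at 1 month, against 44010 to 47430 CPM in WT, and to 47950 to 51950 CPM in 5xFAD at 6 months, against 39740 to 43120 CPM in WT. Bipolar markers (4 genes) summed to 1088 to 1164 CPM in 5xFAD at 1 month, against 885 to 1004 CPM in WT, and to 867 to 882 CPM in 5xFAD at 6 months, against 895 to 1107 CPM in WT. At 6 months Muller markers (4 genes) summed to 2617 to 2765 CPM in 5xFAD, against 2855 to 3150 CPM in WT, amacrine markers (4 genes) to 493 to 523 CPM in 5xFAD, against 542 to 563 CPM in WT, and red cell markers (2 genes) to 14.1 to 19.9 CPM in 5xFAD, against 6.80 to 11.8 CPM in WT. Summed cone markers (4 genes, all detected) came to 846 to 1011 CPM in 5xFAD at 1 month, against 1078 to 1306 CPM in WT, and to 1202 to 1351 CPM in 5xFAD at 6 months, against 900 to 991 CPM in WT. Pigment epithelium markers (4 genes, 3 of them averaging at least 1 CPM in each group) summed to 288 to 312 CPM in 5xFAD at 1 month, against 432 to 477 CPM in WT, and to 409 to 455 CPM in 5xFAD at 6 months, against 357 to 419 CPM in WT. Lens markers (3 genes, of which Crygs and Mip had no count outside the 5xFAD libraries of 1 month) reached 4.86 to 43.7 CPM in 5xFAD at 1 month, against 0 to 0.270 CPM in WT. The part of these measures in the results below was not tested, except for transcript length, for which values are given.

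Of the 40 members, 38 had enough counts to test. Psma8, the testis subunit, and Psmb11, the thymus subunit, had no count in any of the 12 libraries. Level per transcript length, given in TPM (counts over transcript length, scaled to a common total) and averaged over the 12 libraries, ordered the subunits as follows. In the alpha ring Psma3 stood highest at 216 TPM and Psma2 lowest at 73.8 TPM. Of the other beta subunits Psmb4 led at 183 TPM and Psmb1 was lowest at 90.8 TPM. The catalytic subunits Psmb6, Psmb5 and Psmb7 were at 234, 143 and 142 TPM, while their immune counterparts Psmb9, Psmb8 and Psmb10 were at 1.16, 4.17 and 17.6 TPM. Among ATPases Psmc5 was highest at 170 TPM, and among lid subunits Psmd8 was highest at 166 TPM and Psmd11 lowest at 56.3 TPM. The chaperones Psmd5, Psmd9 and Psmd10 stood lower, at 36.7, 31.9 and 15.2 TPM. Psmc2 was left out of this order because only 26.8% of its counts lay on transcripts that the annotation holds.

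**Figure D1:**
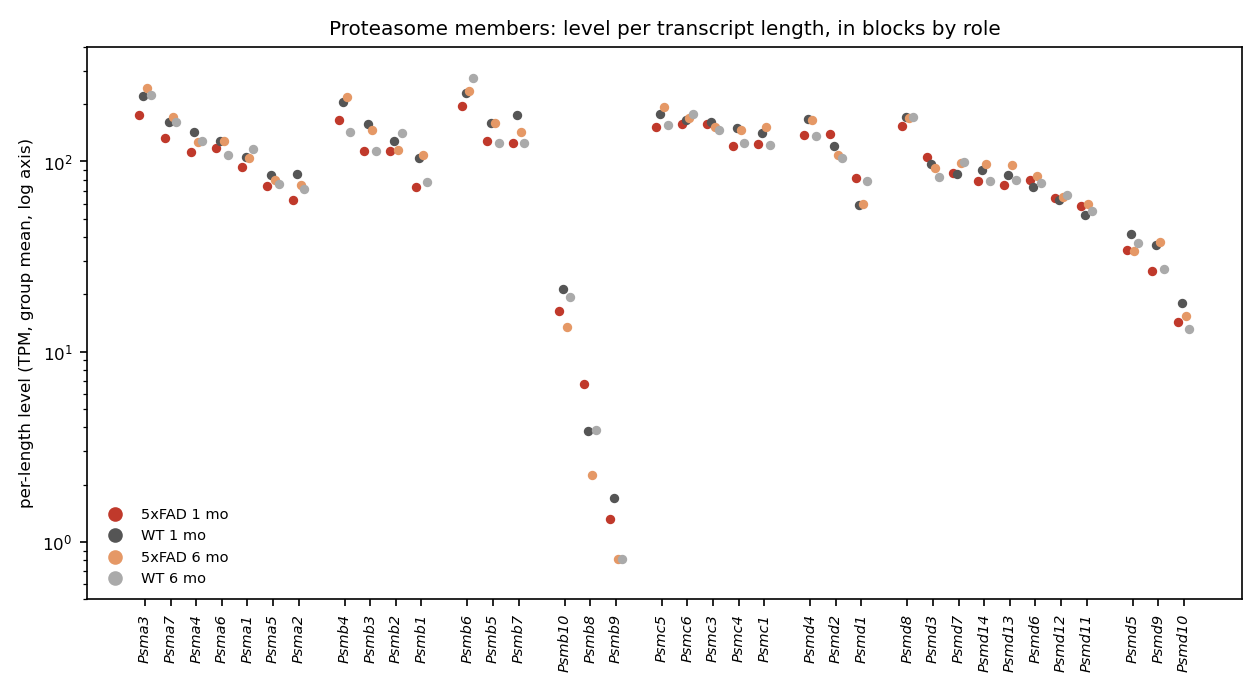
Level per transcript length (TPM on a log axis, mean of 3 libraries per group) of each detected subunit or chaperone except Psmc2, in blocks from left to right for the alpha ring, other beta subunits, catalytic beta subunits, immune catalytic subunits, ATPases, other base subunits, lid and base chaperones. Immune subunits lie at 1.16 to 17.6 TPM over all libraries, against 142 to 234 TPM for the constitutive catalytic subunits.

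At 1 month, proteasome subunit genes were lower in 5xFAD retinas than in WT retinas, mostly those of the core. Of 38 members tested, 17 fell and none rose at an adjusted p below 0.05 (edgeR quasi-likelihood test, Benjamini-Hochberg over all 16233 genes tested), against 8.91% of all genes that fell and 10.7% that rose. Their median log2 fold change was -0.34, against -0.05 over all genes. In 23 of the 38, every 5xFAD library lay below every WT library, against 18.9% of all genes, and in 1 (Psmd1) every 5xFAD library lay above, against 18.7% of all genes. A fall in bulk tissue can come from fewer cells of a type or from less RNA per cell, and these cannot be told apart here.

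Shorter transcripts were lower in 5xFAD at 1 month across the transcriptome, and 31 of the 38 members belong to the 5402 tested genes with the shortest transcripts, with a mean length up to 2061 bases. Among those 5402 genes 18.3% fell, against 16 of the 31 members, or 51.6%. The median log2 fold change there was -0.36 for members and -0.32 for all genes. When the dependence of each library on the length and GC content of transcripts was fitted and taken out, 5 of 38 members fell, against 6.87% of all genes, and the median was -0.10 for members and -0.05 for all genes. They were Psma2, Psma3, Psmb1 and Psmb7, which are among the 17, and Psmc6, which is not. Without WT replicate 2 or 3, or without 5xFAD replicate 2 or 3, of this age, 10, 11, 11 and 11 members fell, in that order.

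**Figure D2:**
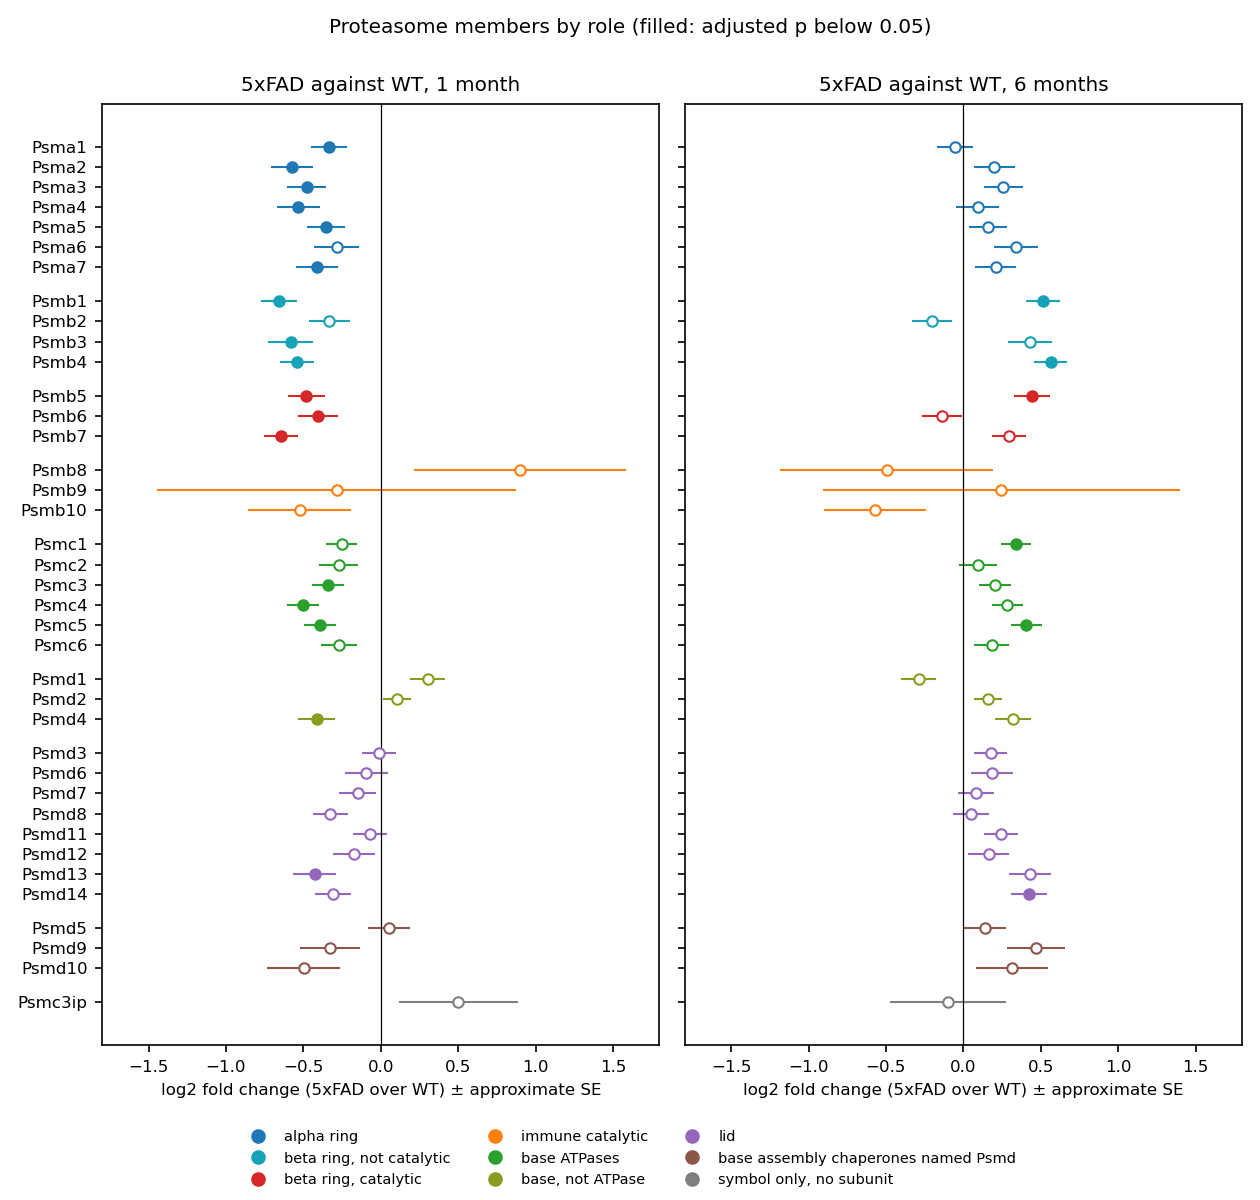
Log2 fold change (5xFAD over WT, with approximate SE) of the 38 tested members at 1 month (left) and 6 months (right), grouped and coloured by role, with filled points past an adjusted p of 0.05. All 14 constitutive core subunits lie below 0 at 1 month, and 11 of the 14 lie above 0 at 6 months.

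In the alpha ring, the outer ring that gates entry to the core, 6 of 7 subunits fell in 5xFAD at 1 month. Psma2 had 59.2, 64.2 and 54.3 CPM in 5xFAD retinas, against 88.1, 89.95 and 86.2 CPM in WT retinas. The groups were clearly apart, with a log2 fold change (± SE) of -0.57 ± 0.14, adjusted p = 0.00397. Psma4 had 49.1, 59.3 and 49.98 CPM in 5xFAD retinas, against 77.6, 70.9 and 80.5 CPM in WT retinas, a log2 fold change of -0.53 ± 0.14, adjusted p = 0.0095. Psma3, whose chain ends in a tail used as a docking site by other proteins, had 96.5, 72.9 and 82.8 CPM in 5xFAD retinas, against 119.9, 123.4 and 108 CPM in WT retinas, and changed by -0.48 ± 0.13, adjusted p = 0.0101 on the log2 scale. Psma7 had 54.7, 41.2 and 57.1 CPM in 5xFAD retinas, against 57.3, 75.7 and 70.5 CPM in WT retinas, with the highest 5xFAD library just below the lowest WT library, and fell by 0.41 on the log2 scale (adjusted p = 0.0335). Psma6 was the exception: it had 57.6, 54.5 and 39.9 CPM in 5xFAD retinas, against 64.6, 58.4 and 62.4 CPM in WT retinas, and its log2 fold change of -0.29 ± 0.14, adjusted p = 0.177 did not pass the test. Psma1 and Psma5 fell at the edge of the threshold, with adjusted p values of 0.0482 and 0.0443, and remained past it in 4 and 5 of 22 alternatives.

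Of the inner beta rings, 3 of the 4 subunits without a protease site and all 3 catalytic subunits fell at 1 month. Psmb1 had 54.8, 50.3 and 54.2 CPM in 5xFAD retinas, against 87.5, 88.8 and 75.1 CPM in WT retinas, the largest fall of any subunit, with a log2 fold change of -0.66 ± 0.11, adjusted p = 0.000285. Psmb4 had 67.9, 73.8 and 67.7 CPM in 5xFAD retinas, against 92.3, 114 and 99.2 CPM in WT retinas, a log2 fold change of -0.54 ± 0.11, adjusted p = 0.001. These ranges did not overlap. Psmb3 averaged 38.3 ± 2.81 CPM in 5xFAD retinas and 57.3 ± 8.12 CPM in WT retinas (SD, n = 3 each), a log2 fold change of -0.58 ± 0.15, adjusted p = 0.00649, whereas Psmb2 had 40.4, 42.6 and 35.98 CPM in 5xFAD retinas, against 48.3, 54.00 and 47.7 CPM in WT retinas, apart in range, and did not pass (-0.33 ± 0.13, adjusted p = 0.079). Psmb7, which carries the trypsin-like site, had 66.4, 58.5 and 56.97 CPM in 5xFAD retinas, against 96.5, 98.3 and 89.6 CPM in WT retinas, a log2 fold change of -0.64 ± 0.11, adjusted p = 0.000255. Its exons share 405 bases with Nek6 on the other strand, which held 10.5% as many counts. Psmb5, which carries the chymotrypsin-like site, had 47.9, 51.4 and 43.4 CPM in 5xFAD retinas, against 67.1, 64.8 and 67.04 CPM in WT retinas, a log2 fold change of -0.48 ± 0.12, adjusted p = 0.00528. Psmb6, the caspase-like subunit, had 71.7, 61.9 and 59.4 CPM in 5xFAD retinas, against 85.9, 94.3 and 75.7 CPM in WT retinas, and its log2 fold change was -0.41 ± 0.13, adjusted p = 0.0306. Psmb1, Psmb7 and Psma2 fell in all 22 alternative analyses, while the fall of Psmb6 was gone once length and GC were fitted (log2 fold change 0.001).

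Cap subunits moved less uniformly at 1 month. Among the ATPases that unfold the substrate, 3 of 6 fell. Psmc4 had 67.8, 61.3 and 67.5 CPM in 5xFAD retinas, against 89.9, 103 and 85.6 CPM in WT retinas, a log2 fold change of -0.50 ± 0.10, adjusted p = 0.00151. Psmc5 had 84.3, 84.2 and 80.9 CPM in 5xFAD retinas, against 112, 116 and 99.6 CPM in WT retinas, a log2 fold change of -0.39 ± 0.10, adjusted p = 0.00787. Psmc3 had 83.2, 89.8 and 86.8 CPM in 5xFAD retinas, against 103, 118 and 108 CPM in WT retinas and changed by -0.34 ± 0.10, adjusted p = 0.0205. However, its exons overlap 215 bases of Slc39a13 on the other strand, which unstranded counts cannot separate. Slc39a13 held 34.3% as many counts as Psmc3. Psmc1 had 77.9, 86.05 and 78.8 CPM in 5xFAD retinas, against 98.4, 96.9 and 94.00 CPM in WT retinas, apart in range but short of the threshold (-0.25 ± 0.10, adjusted p = 0.0778). Psmc2 and Psmc6 did not pass, with log2 fold changes of -0.27 ± 0.12, adjusted p = 0.129 and -0.27 ± 0.12, adjusted p = 0.103.

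The base also holds 3 large or ubiquitin-binding subunits that are not ATPases, and 1 of them fell. Psmd4, a ubiquitin receptor, had 84.7, 68.9 and 72.4 CPM in 5xFAD retinas, against 94.2, 117 and 89.9 CPM in WT retinas, a log2 fold change of -0.41 ± 0.12, adjusted p = 0.0146. Psmd1 and Psmd2 are the large scaffolds of the base. Psmd1 had 108, 90.01 and 110.0 CPM in 5xFAD retinas, against 87.98, 75.3 and 86.04 CPM in WT retinas, higher in each 5xFAD library without passing the test (0.30 ± 0.11, adjusted p = 0.0615). Psmd2 had 171, 169 and 160.1 CPM in 5xFAD retinas, against 155, 166 and 144 CPM in WT retinas, overlapping groups with a log2 fold change of 0.10 ± 0.09, adjusted p = 0.471. Psmd1 and Psmd2 have mean transcript lengths of 3096 and 2930 bases, against 1350 bases for Psmd4.

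In the lid, which removes ubiquitin chains, 1 of 8 subunits fell at 1 month. This was Psmd13, a structural subunit, with 33.5, 46.7 and 36.4 CPM in 5xFAD retinas, against 55.04, 52.7 and 49.1 CPM in WT retinas and a log2 fold change of -0.43 ± 0.14, adjusted p = 0.0297. Its exons share 342 bases with Sirt3 on the other strand, which held 67.5% as many counts. Psmd13 passed in 15 of 22 alternatives. Psmd14, the deubiquitinating enzyme, had 51.7, 44.7 and 42.4 CPM in 5xFAD retinas, against 59.4, 57.6 and 55.4 CPM in WT retinas, apart in range but not past the test (-0.31 ± 0.12, adjusted p = 0.0644). Psmd8 had 94.96, 86.9 and 75.7 CPM in 5xFAD retinas, against 98.6, 123.0 and 101 CPM in WT retinas, with a log2 fold change of -0.33 ± 0.12, adjusted p = 0.0515. Psmd3 had 89.4, 102 and 88.7 CPM in 5xFAD retinas, against 85.2, 100.5 and 96.7 CPM in WT retinas, with interleaved groups and a log2 fold change of -0.01 ± 0.11, adjusted p = 0.957. The groups of Psmd8 did not overlap. The remaining lid subunits Psmd6, Psmd7, Psmd11 and Psmd12 had log2 fold changes between -0.17 and -0.07 that did not pass.

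None of the 3 base chaperones passed at 1 month. Psmd5 had 53.9, 50.2 and 49.8 CPM in 5xFAD retinas, against 45.04, 44.1 and 58.9 CPM in WT retinas. Psmd9 had 27.2, 20.1 and 26.6 CPM in 5xFAD retinas, against 25.1, 37.5 and 30.3 CPM in WT retinas. The groups of both overlapped. Psmd10, also called gankyrin, had 9.03, 8.93 and 7.27 CPM in 5xFAD retinas, against 12.3, 10.9 and 12.4 CPM in WT retinas, lower in each 5xFAD library but with a log2 fold change of -0.50 ± 0.23, adjusted p = 0.14. Psmc3ip, no subunit, shares 385 exon bases with Mlx on the other strand, which held 444% as many counts. Psmc3ip had 5.64, 4.69 and 5.29 CPM in 5xFAD retinas, against 5.29, 1.62 and 4.11 CPM in WT retinas, and its log2 fold change was 0.50 ± 0.38, adjusted p = 0.396.

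Summed over subunits, the 14 constitutive core genes came to 755 ± 37.2 CPM in 5xFAD at 1 month and 1057 ± 31.0 CPM in WT (SD, n = 3 each), a ratio of 0.714. The 17 cap genes came to 1291 ± 33.7 CPM in 5xFAD and 1477 ± 79.1 CPM in WT, a ratio of 0.875. All members together came to 2145 ± 72.5 CPM in 5xFAD and 2640 ± 104 CPM in WT. None of these groups overlapped, and each exact two-sided permutation test gave p = 0.1, the smallest that 3 against 3 libraries can give. Per transcript length, with Psmc2 left out of the cap, the mean core level over the mean cap level was 1.12, 1.07 and 1.07 in 5xFAD libraries, against 1.24, 1.27 and 1.35 in WT libraries (exact p = 0.1). Core transcripts are shorter than cap transcripts, with medians of 1109 and 1575 bases.

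**Figure D3:**
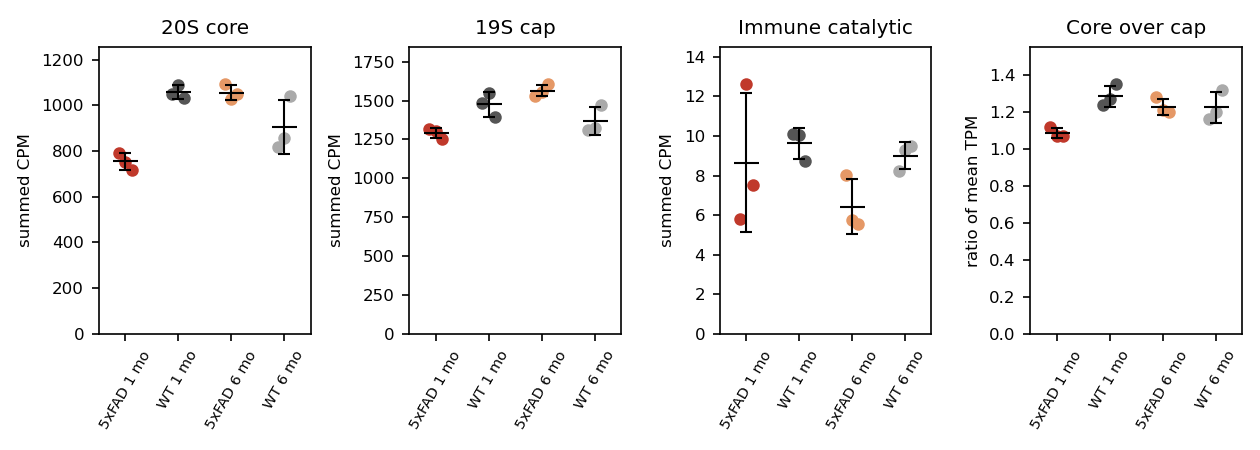
Summed CPM of the 14 constitutive core genes, the 17 cap genes and the 3 immune catalytic genes, and the ratio of mean core to mean cap level per transcript length (cap without Psmc2), in each library by group (bars: mean ± SD, n = 3). Core sums average 755 CPM in 5xFAD against 1057 CPM in WT at 1 month, and 1056 CPM in 5xFAD against 905 CPM in WT at 6 months.

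At 6 months the difference ran the other way. Of the 38 members, 6 rose in 5xFAD and none fell, against 2.48% of all genes that rose and 3.89% that fell. The risers were the beta subunits Psmb1, Psmb4 and Psmb5, the ATPases Psmc1 and Psmc5, and the lid enzyme Psmd14. The members' median log2 fold change was 0.20, against 0.00 over all genes. In 11 of 38 every 5xFAD library lay above every WT library, against 11.4% of all genes, and in 1 (Psmb10) every 5xFAD library lay below, against 12.8% of all genes. Among genes with transcripts up to 2061 bases, 6 of 31 members rose, or 19.4%, against 4.74% of all genes, with medians of 0.21 and 0.14. With the dependence on length and GC taken out 10 of 38 members rose, the same 6 and Psmb7, Psmc4, Psmc6 and Psmd13, against 7.21% of all genes, and the median was 0.26 for members and 0.09 for all genes.

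This set of calls rests on few libraries. It came to 1 member without WT replicate 1 or without WT replicate 2, to 10 without WT replicate 3, and to 2 without 5xFAD replicate 1 or without 5xFAD replicate 2, all of this age. Leaving out the 3 libraries richest in ribosomal RNA, which include 5xFAD replicates 1 and 2 of this age and leave 1 5xFAD library, left none past the threshold with a members' median of 0.25. Psmb4 remained past it in 21 of 22 alternatives and Psmb1 in 19.

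Psmb4 had 106, 92.4 and 87.1 CPM in 5xFAD retinas, against 63.3, 62.9 and 67.2 CPM in WT retinas, groups far apart, with a log2 fold change of 0.56 ± 0.11, adjusted p = 0.00277. Psmb1 had 89.1, 92.1 and 83.7 CPM in 5xFAD retinas, against 55.5, 58.6 and 71.2 CPM in WT retinas, a log2 fold change of 0.52 ± 0.11, adjusted p = 0.00727. The catalytic subunit Psmb5 had 74.6, 72.5 and 59.99 CPM in 5xFAD retinas, against 48.8, 47.9 and 55.3 CPM in WT retinas, a log2 fold change of 0.44 ± 0.12, adjusted p = 0.0223. Psmc5 had 128, 129 and 113 CPM in 5xFAD retinas, against 87.4, 88.8 and 102 CPM in WT retinas, a log2 fold change of 0.41 ± 0.10, adjusted p = 0.0162. In these 4 genes every 5xFAD library exceeded every WT library. Psmc1 had 102, 115 and 113 CPM in 5xFAD retinas, against 85.2, 80.5 and 94.5 CPM in WT retinas, a log2 fold change of 0.34 ± 0.10, adjusted p = 0.0392, and passed in 7 of 22 alternatives. Psmd14 had 65.7, 65.9 and 61.5 CPM in 5xFAD retinas, against 43.5, 46.9 and 53.2 CPM in WT retinas, a log2 fold change of 0.42 ± 0.12, adjusted p = 0.0284.

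Several members were higher in range at 6 months without passing the test. Psmc4 had 89.6, 94.8 and 90.6 CPM in 5xFAD retinas, against 72.4, 71.5 and 81.8 CPM in WT retinas, a log2 fold change of 0.28 ± 0.10, adjusted p = 0.103. Psmd13 had 66.01, 64.1 and 52.1 CPM in 5xFAD retinas, against 40.6, 45.2 and 49.4 CPM in WT retinas, a log2 fold change of 0.43 ± 0.13, adjusted p = 0.0566. Psmd4 had 91.00, 109.9 and 107 CPM in 5xFAD retinas, against 76.9, 83.5 and 85.6 CPM in WT retinas, a log2 fold change of 0.32 ± 0.12, adjusted p = 0.101. Their lowest 5xFAD library lay above the highest WT library. For Psmb7, whose fall at 1 month was among the largest, the values were 73.3, 86.4 and 82.1 CPM in 5xFAD retinas, against 61.3, 62.3 and 73.8 CPM in WT retinas, with 1 5xFAD library just below the highest WT library and a log2 fold change of 0.29 ± 0.11, adjusted p = 0.113.

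No alpha ring subunit passed at 6 months. Psma2 had 61.3, 90.9 and 89.95 CPM in 5xFAD retinas, against 64.5, 64.5 and 82.1 CPM in WT retinas, and 1 low 5xFAD library lay below every WT library. Psma3 had 140.0, 113 and 144 CPM in 5xFAD retinas, against 96.3, 102 and 133 CPM in WT retinas. Psma4 had 75.6, 53.1 and 81.7 CPM in 5xFAD retinas, against 57.9, 63.7 and 75.9 CPM in WT retinas. WT replicate 3 was the highest WT library in each of these. Psma6 had 68.5, 58.9 and 65.2 CPM in 5xFAD retinas, against 41.9, 47.9 and 62.5 CPM in WT retinas, and Psma7 had 81.8, 76.7 and 69.8 CPM in 5xFAD retinas, against 60.2, 63.1 and 74.3 CPM in WT retinas. Log2 fold changes in the ring ran from -0.05 for Psma1 to 0.34 for Psma6.

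At 6 months the core sum was 1056 ± 32.9 CPM in 5xFAD and 905 ± 118 CPM in WT (SD, n = 3 each, exact permutation p = 0.2). The cap sum was 1564 ± 37.6 CPM in 5xFAD and 1370 ± 90.2 CPM in WT, and that of all members 2730 ± 33.9 CPM in 5xFAD and 2371 ± 218 CPM in WT, each with an exact p of 0.1. The ratio of core to cap level per transcript length, again without Psmc2, was 1.28, 1.21 and 1.20 in 5xFAD libraries, against 1.16, 1.20 and 1.32 in WT libraries, and these overlapped (exact p = 1.0).

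The base chaperones did not pass at 6 months. Psmd5 had 45.2, 52.7 and 56.3 CPM in 5xFAD retinas, against 45.3, 41.2 and 53.7 CPM in WT retinas. Psmd9 had 47.7, 32.99 and 30.7 CPM in 5xFAD retinas, against 26.9, 22.01 and 31.6 CPM in WT retinas, with a log2 fold change of 0.47 ± 0.19, adjusted p = 0.148. Psmd10 had 8.19, 11.7 and 11.5 CPM in 5xFAD retinas, against 8.83, 8.20 and 8.26 CPM in WT retinas. Groups overlapped in all 3, and Psmc3ip, no subunit, had 4.61, 5.26 and 4.33 CPM in 5xFAD retinas, against 6.00, 4.08 and 5.15 CPM in WT retinas.

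Some members did not share the rise at 6 months. The catalytic subunit Psmb6 had 95.2, 95.9 and 77.5 CPM in 5xFAD retinas, against 86.4, 89.7 and 119.5 CPM in WT retinas, with a log2 fold change of -0.14 ± 0.13, adjusted p = 0.605. Psmb2 averaged 47.5 ± 6.36 CPM in 5xFAD retinas and 54.8 ± 6.69 CPM in WT retinas (SD, n = 3 each), a log2 fold change of -0.20 ± 0.13, adjusted p = 0.401. Psmd1 had 82.2, 81.5 and 102 CPM in 5xFAD retinas, against 102, 114 and 110.1 CPM in WT retinas, a log2 fold change of -0.29 ± 0.11, adjusted p = 0.129, opposite in sign to the other base subunits. Its scaffold partner Psmd2 had 148, 139.7 and 156 CPM in 5xFAD retinas, against 131, 127 and 141 CPM in WT retinas, a log2 fold change of 0.16 ± 0.09, adjusted p = 0.341. Values of Psmc3 were 100.5, 104 and 113 CPM in 5xFAD retinas, against 83.5, 89.9 and 103 CPM in WT retinas, of Psmd3 91.1, 104 and 81.8 CPM in 5xFAD retinas, against 83.3, 81.6 and 80.2 CPM in WT retinas and of Psmd8 114, 104 and 102 CPM in 5xFAD retinas, against 100.0, 91.8 and 117 CPM in WT retinas, with overlapping groups in each.

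**Figure D4:**
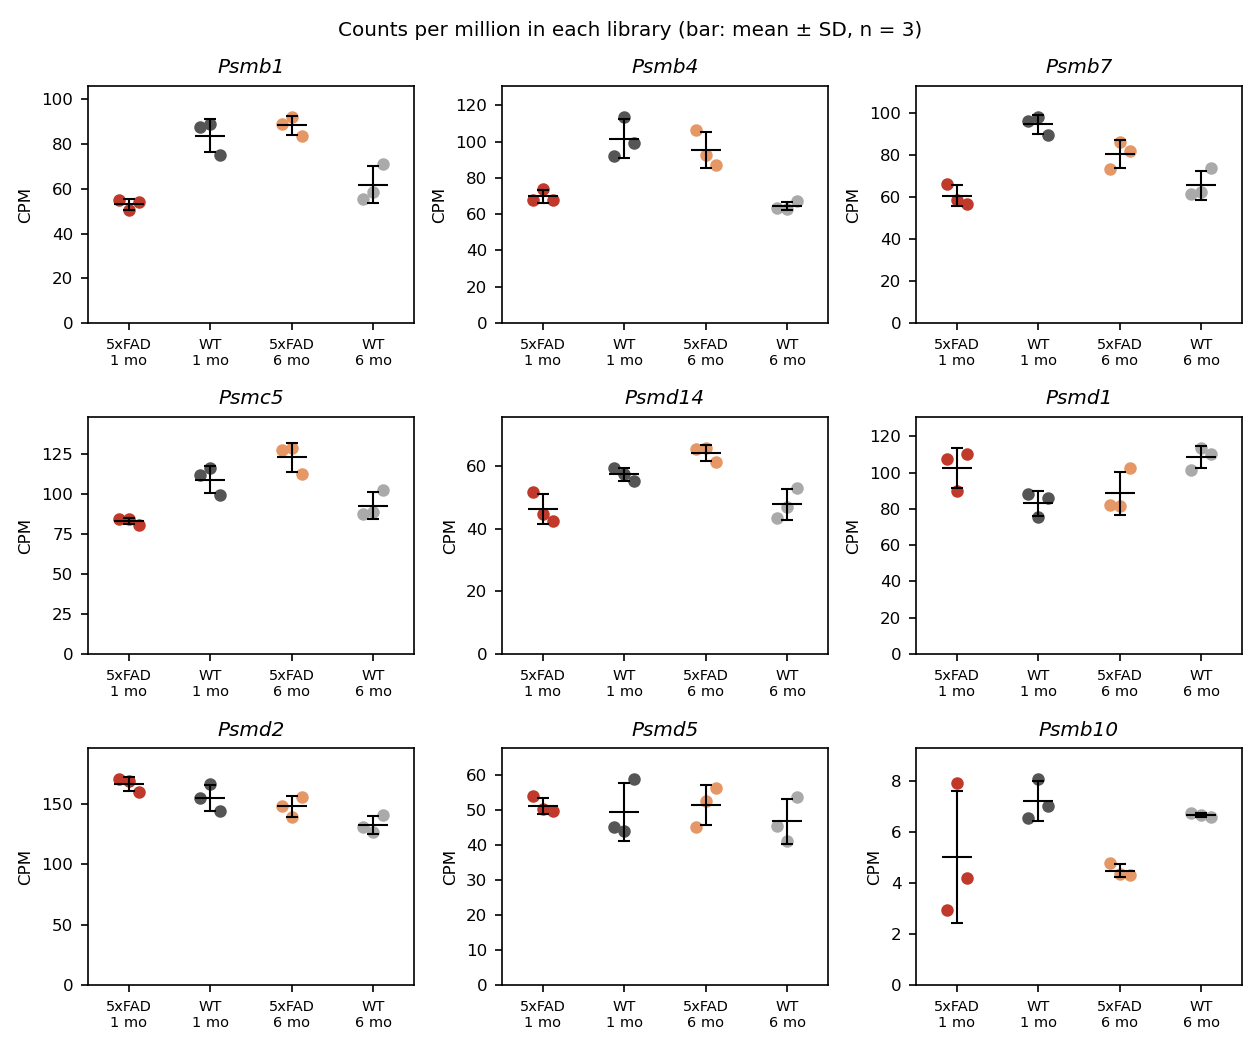
CPM of 9 members in each library, by group (bars: mean ± SD, n = 3). Psmb1, Psmb4, Psmb7, Psmc5 and Psmd14 are lower in 5xFAD than in WT libraries at 1 month and higher at 6 months on average, Psmd1 runs the opposite way, and Psmd2 and Psmd5 overlap at 1 month.

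Within 5xFAD, 22 of 38 members rose at 6 months relative to 1 month and none fell, against 10.8% of all genes that rose and 12.4% that fell. All 6 ATPases, all 3 catalytic subunits, 5 of 7 alpha ring subunits, 3 of 4 other beta subunits, 3 of 8 lid subunits, Psmd4 and the chaperone Psmd9 were among them. The median log2 change was 0.39, against 0.03 over all genes. Among genes up to 2061 bases 20 of 31 members rose, or 64.5%, against 21.7% of all genes, with medians of 0.41 and 0.33. Summed red cell markers (2 genes) were at 14.1 to 19.9 CPM in 5xFAD at 6 months, against 55.1 to 76.6 CPM at 1 month, and endothelium markers (3 genes) at 4.97 to 7.76 CPM, against 18.7 to 24.0 CPM. Without overlap, cone, ganglion and pigment epithelium markers were higher and bipolar, amacrine and lens markers lower at 6 months. Ganglion markers (4 genes) summed to 340 to 354 CPM at 6 months, against 314 to 329 CPM at 1 month, and amacrine markers to 493 to 523 CPM, against 551 to 629 CPM. Lens markers reached at most 1.05 CPM at 6 months, the values of the other lists are given above, and the part of these markers was not tested. The changes ran up to Psmb1, which had 89.1, 92.1 and 83.7 CPM in 6-month retinas, against 54.8, 50.3 and 54.2 CPM in 1-month retinas, a log2 change of 0.73 ± 0.11, adjusted p = 7.52e-05, and Psma3, with 140.0, 113 and 144 CPM in 6-month retinas, against 96.5, 72.9 and 82.8 CPM in 1-month retinas and a log2 change of 0.65 ± 0.13, adjusted p = 0.000748. Of those past the threshold, Psmc3 had the highest p (0.29 ± 0.10, adjusted p = 0.0426). The count was 13 without 5xFAD replicate 3 of 1 month, 11 without the 3 libraries richest in ribosomal RNA, and 10 once length and GC were fitted, against 10.7% of all genes, with medians of 0.18 and 0.08.

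Within WT, 5 of 38 members fell at 6 months and 1 rose, against 4.49% of all genes that fell and 6.01% that rose. All 5 that fell were beta subunits. The median log2 change was -0.20, against -0.01 over all genes. Among genes up to 2061 bases 5 of 31 members fell, or 16.1%, against 6.29% of all genes, with medians of -0.20 and -0.14. Once length and GC were fitted 5 members fell and 2 rose, and 2003 of 16233 genes passed in either direction. The medians were then -0.17 for members and -0.06 for all genes. Past the threshold were Psma2, Psmb1, Psmb4, Psmb6, Psmb7, Psmc6 and Psmd1, while Psmb3 and Psmb5 did not pass. Red cell markers summed to 6.80 to 11.8 CPM in WT at 6 months, against 42.1 to 106 CPM at 1 month, and endothelium markers to 7.23 to 9.30 CPM, against 11.1 to 19.4 CPM. Muller markers, at 2855 to 3150 CPM at 6 months, against 2457 to 2624 CPM at 1 month, were higher without overlap. Rod, cone, pigment epithelium and horizontal markers were lower without overlap, the last (3 genes) at 75.1 to 84.8 CPM at 6 months, against 85.5 to 91.6 CPM at 1 month. The part of these markers was not tested. Psmb4 had 63.3, 62.9 and 67.2 CPM in 6-month retinas, against 92.3, 114 and 99.2 CPM in 1-month retinas, a log2 change of -0.66 ± 0.11, adjusted p = 0.000446. Psmb7 had 61.3, 62.3 and 73.8 CPM in 6-month retinas, against 96.5, 98.3 and 89.6 CPM in 1-month retinas, a log2 change of -0.53 ± 0.11, adjusted p = 0.00318. Psmb3, Psmb1 and Psmb5 changed by -0.50 ± 0.14, adjusted p = 0.0271, -0.44 ± 0.11, adjusted p = 0.0134 and -0.39 ± 0.12, adjusted p = 0.033. The subunit that rose was the base scaffold Psmd1, with 102, 114 and 110.1 CPM in 6-month retinas, against 87.98, 75.3 and 86.04 CPM in 1-month retinas and a log2 change of 0.38 ± 0.11, adjusted p = 0.0294. Falls numbered 3, 2 and 3 without WT replicate 1, 2 or 3 of 1 month, and 2, 2 and 9 without WT replicate 1, 2 or 3 of 6 months. The rise of Psmd1 was lost without WT replicate 2 of 1 month and without WT replicate 2 or 3 of 6 months.

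The genotype difference itself differed between the ages for 21 of the 38 members. In the interaction of genotype and age (the log2 fold change at 6 months minus that at 1 month), 20 members were positive and 1 negative, against 11.7% and 13.3% of all genes, with a median of 0.54 for members and 0.06 for all genes. The largest were Psmb1 (1.17 ± 0.16, adjusted p = 1.24e-05), Psmb4 (1.11 ± 0.15, adjusted p = 1.42e-05), Psmb3 (1.01 ± 0.20, adjusted p = 0.000811) and Psmb7 (0.94 ± 0.16, adjusted p = 0.000107). Among cap subunits the largest were Psmd13 (0.86 ± 0.19, adjusted p = 0.00202), which shares exon bases with Sirt3 as given above, and Psmc5 (0.80 ± 0.14, adjusted p = 0.000236). The negative one was Psmd1 (-0.59 ± 0.16, adjusted p = 0.00807), and Psmc6 had the highest p of those past the threshold (0.45 ± 0.16, adjusted p = 0.0429). Among genes up to 2061 bases 18 of 31 members were positive, or 58.1%, against 22.0% of all genes, with medians of 0.59 and 0.47. Once length and GC were fitted 13 were positive, against 13.4% of all genes, with medians of 0.35 and 0.14, and Psmd1 stayed negative, and without WT replicate 1 of 6 months 13 were positive. Without the 3 libraries richest in ribosomal RNA, Psmd1 did not pass. The interaction shares all libraries with the comparisons above and adds no samples to them. Psmb1, Psmb4, Psmb7, Psma2, Psma3, Psmc1, Psmc4, Psmc5 and Psmd14 passed in all 21 alternatives for the interaction.

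**Figure D5:**
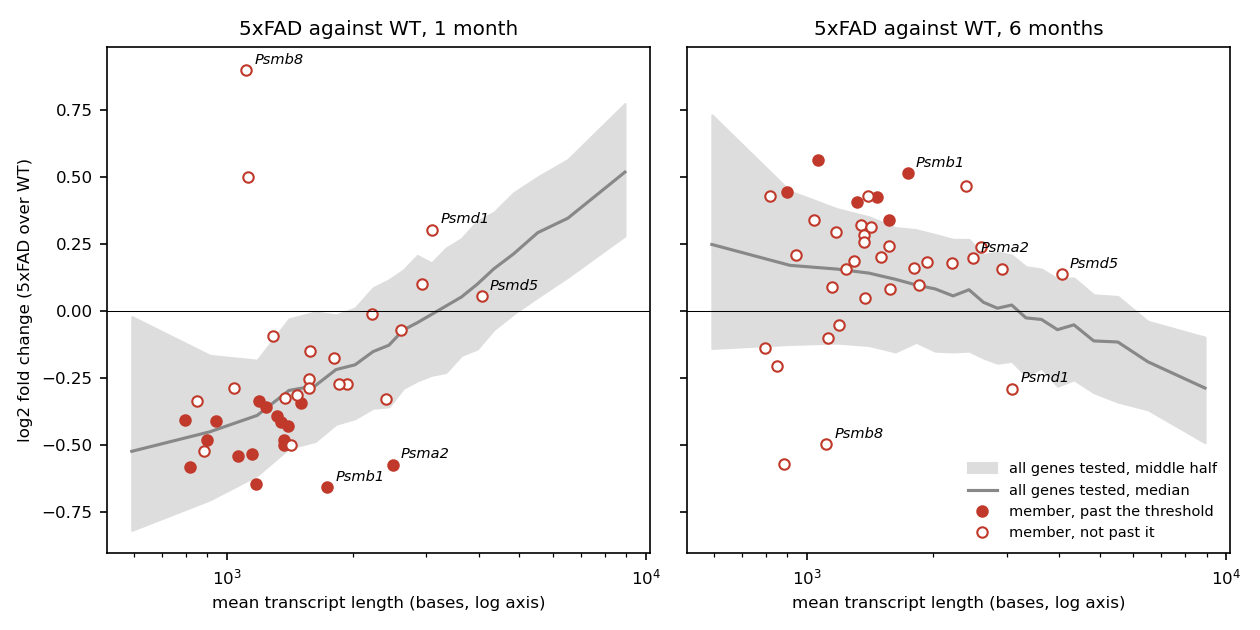
Log2 fold change (5xFAD over WT) against mean transcript length in bases (log axis) at 1 month (left) and 6 months (right), for the 38 tested members (points, filled where past an adjusted p of 0.05) over the median and interquartile band of all tested genes in 20 bins of length. At 1 month 31 members lie within the band of genes of like length and 3 below it (Psma2, Psmb1 and Psmb7), and at 6 months 24 lie within it, 9 above and 5 below.

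The immune catalytic subunits were scarce in every group, and with all 12 libraries none passed in any comparison. Over all 12 libraries they held 929 counts (Psmb10), 292 counts (Psmb8) and 107 counts (Psmb9). Psmb10 had 2.95, 7.92 and 4.22 CPM in 5xFAD retinas, against 6.55, 8.09 and 7.02 CPM in WT retinas at 1 month, and 4.78, 4.37 and 4.33 CPM in 5xFAD retinas, against 6.74, 6.67 and 6.59 CPM in WT retinas at 6 months. At 6 months every 5xFAD library lay below every WT library, with a log2 fold change of -0.57 ± 0.33, adjusted p = 0.343. Psmb8 had 2.26, 4.05 and 2.51 CPM in 5xFAD retinas, against 2.27, 0.719 and 1.71 CPM in WT retinas at 1 month, and 2.47, 0.404 and 0.923 CPM in 5xFAD retinas, against 1.42, 1.89 and 2.04 CPM in WT retinas at 6 months. The log2 fold change of Psmb8 was 0.90 ± 0.69, adjusted p = 0.393 at 1 month and -0.495 ± 0.69, adjusted p = 0.755 at 6 months. Psmb9 had 0.608, 0.644 and 0.807 CPM in 5xFAD retinas, against 1.26, 1.26 and 0 CPM in WT retinas at 1 month, and 0.767, 0.970 and 0.284 CPM in 5xFAD retinas, against 0.0674, 0.713 and 0.898 CPM in WT retinas at 6 months. The SE of the log2 fold change at 1 month was 0.69 for Psmb8 and 1.16 for Psmb9. Without 5xFAD replicate 1 of 6 months, Psmb8 was lower in 5xFAD at 6 months than at 1 month (log2 change -2.13, adjusted p = 0.0496). With all libraries this change was -1.22 ± 0.69, adjusted p = 0.224, and its adjusted p ran up to 0.486 over 22 alternatives, of which 1 passed. Psmb9 shares 212 exon bases with Tap1 on the other strand, which held 450 counts over all libraries.

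Per transcript length, the immune subunits made up 3.25, 7.51 and 4.67% of all catalytic subunit level in 5xFAD libraries at 1 month, against 4.41, 4.42 and 4.81% in WT libraries (exact p = 0.8). At 6 months the share was 3.03, 2.82 and 3.14% in 5xFAD libraries, against 4.81, 4.46 and 3.96% in WT libraries, with no overlap and an exact p of 0.1, the smallest possible. This share describes genes and not coding messages. In Psmb10, the immune subunit with the highest level, 50.5% of counts lay on retained-intron transcripts. Its coding transcripts held 33.3 ± 34.9% in 5xFAD and 43.7 ± 6.49% in WT at 6 months (SD, n = 3 each). Markers of blood immune cells (7 genes) summed to at most 2.10 CPM in any library, and none of them averaged 1 CPM in any group. Microglia markers (5 genes, 4 of them above 1 CPM on average in each group) summed to 8.56 to 12.9 CPM in 5xFAD at 1 month, against 13.6 to 18.8 CPM in WT, and 11.7 to 13.9 CPM in 5xFAD at 6 months, against 13.3 to 14.1 CPM in WT. Of 14 genes of MHC class I presentation and interferon response, none passed between the genotypes at either age. Of all genes 10.7% rose and 8.91% fell at 1 month, and 2.48% rose and 3.89% fell at 6 months. Tap2, a subunit of the peptide transporter, had the smallest p at 6 months, with 12.5, 21.4 and 9.58 CPM in 5xFAD retinas, against 9.16, 8.92 and 7.42 CPM in WT retinas and a log2 fold change of 0.77 ± 0.26, adjusted p = 0.083. In 5xFAD at 6 months relative to 1 month, 2 of the 14 rose, against 10.8% of all genes. These were Irf9 (0.57 ± 0.18, adjusted p = 0.0244) and B2m (0.62 ± 0.22, adjusted p = 0.0435). Of 22 alternatives, Irf9 passed in 17 and B2m in 11, and once length and GC were fitted B2m did not pass (0.36, adjusted p = 0.247).

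Other genes of the pathway were counted by list. Among 9 genes tied to the transcription of subunits, 2 rose in 5xFAD at 1 month and none fell, against 10.7% and 8.91% of all genes. Nfe2l1, which in mammalian cells induces subunit genes, had 206, 204 and 224 CPM in 5xFAD retinas, against 141, 134 and 156 CPM in WT retinas at 1 month, a log2 fold change of 0.56 ± 0.09, adjusted p = 0.000116. At 6 months it had 156, 161 and 151 CPM in 5xFAD retinas, against 184, 193 and 189 CPM in WT retinas, a log2 fold change of -0.28 ± 0.09, adjusted p = 0.0618. The interaction of Nfe2l1 was -0.83 ± 0.12, adjusted p = 3.37e-05. Its rise at 1 month passed in all 22 alternatives, and once length and GC were fitted it was 0.47 (adjusted p = 0.000107). The difference at 6 months passed in 2 of 22 alternatives, and once length and GC were fitted it was -0.165 (adjusted p = 0.165). The mean transcript length of Nfe2l1 is 4094 bases. Whether the level of Nfe2l1 is linked to that of the subunits was not tested. Nfya, a subunit of the factor that binds CCAAT boxes, had 56.8, 67.5 and 52.3 CPM in 5xFAD retinas, against 38.3, 37.1 and 44.8 CPM in WT retinas, a log2 fold change of 0.56 ± 0.13, adjusted p = 0.00419. Mafg, a partner of Nfe2l1, had 127, 110.0 and 144 CPM in 5xFAD retinas, against 139, 180.5 and 158 CPM in WT retinas and did not pass (-0.32 ± 0.13, adjusted p = 0.0767). Once length and GC were fitted Mafg did pass, lower at 1 month (-0.45, adjusted p = 0.0089) and higher at 6 months (0.35, adjusted p = 0.0441), and it passed in 6 and 1 of 22 alternatives at these ages.

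Of 5 core assembly chaperones, 1 fell in 5xFAD at 1 month and 1 rose at 6 months, against 8.91% and 2.48% of all genes. Psmg1, which helps to build the alpha ring, had 8.25, 5.61 and 8.43 CPM in 5xFAD retinas, against 15.1, 15.2 and 10.4 CPM in WT retinas, a log2 fold change of -0.87 ± 0.26, adjusted p = 0.0182 that did not pass once length and GC were fitted (adjusted p = 0.136). Pomp, the maturation factor of the beta rings, had 83.2, 78.4 and 68.7 CPM in 5xFAD retinas, against 54.3, 45.1 and 55.8 CPM in WT retinas at 6 months, a log2 fold change of 0.57 ± 0.16, adjusted p = 0.0339 that passed in 16 of 22 alternatives. At 1 month Pomp had 47.9, 39.9 and 37.95 CPM in 5xFAD retinas, against 65.2, 67.4 and 38.95 CPM in WT retinas and did not pass (-0.45 ± 0.16, adjusted p = 0.0571). Of 5 activators and inhibitors of the core, 1 fell at 1 month, against 8.91% of all genes. This was Psme2, a subunit of an activator induced by interferon, with 13.6, 13.2 and 11.7 CPM in 5xFAD retinas, against 24.5, 17.97 and 18.1 CPM in WT retinas. Its log2 fold change was -0.65 ± 0.19, adjusted p = 0.0173, and it did not pass once length and GC were fitted (adjusted p = 0.318). None of these 5 passed at 6 months. Once length and GC were fitted Psme4 did pass, lower at 1 month (-0.35, adjusted p = 0.0181) and higher at 6 months (0.32, adjusted p = 0.0339). Psme4 passed in 2 of 22 alternatives at each age.

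Of 6 further cap subunits and cap-bound enzymes, 1 rose in 5xFAD at 1 month, against 10.7% of all genes, and none passed at 6 months. The riser was the ubiquitin ligase Ube3c (0.36 ± 0.11, adjusted p = 0.0231), which did not pass once length and GC were fitted (adjusted p = 0.621). Once length and GC were fitted Usp14 did pass, lower at 1 month (-0.34, adjusted p = 0.0196) and higher at 6 months (0.31, adjusted p = 0.0398). Usp14 passed in 2 and 1 of 22 alternatives at these ages. The small lid subunit Sem1 had 20.9, 18.1 and 22.2 CPM in 5xFAD retinas, against 31.3, 28.4 and 23.97 CPM in WT retinas and did not pass (-0.45 ± 0.17, adjusted p = 0.0611). Of the ubiquitin genes and ubiquitin-activating enzymes, 4 are described. Rps27a, which encodes ubiquitin joined to a ribosomal protein, had 138, 128 and 103 CPM in 5xFAD retinas, against 204, 216 and 199 CPM in WT retinas at 1 month, a log2 fold change of -0.75 ± 0.12, adjusted p = 9.64e-05. At 6 months it had 247, 230.4 and 238 CPM in 5xFAD retinas, against 176, 153 and 217 CPM in WT retinas, a log2 fold change of 0.39 ± 0.11, adjusted p = 0.0416, which passed in 8 of 22 alternatives and did not pass once length and GC were fitted (adjusted p = 0.0697). Ubb, a gene of ubiquitin repeats named after its values were seen, fell at 1 month (-0.33 ± 0.10, adjusted p = 0.0192) and did not pass once length and GC were fitted (adjusted p = 0.789). The activating enzymes Uba1 and Uba6 rose at 1 month, with log2 fold changes of 0.32 ± 0.08, adjusted p = 0.00653 for Uba1 and 0.82 ± 0.21, adjusted p = 0.00637 for Uba6, and once length and GC were fitted Uba6 did not pass (adjusted p = 0.271). Of 9 shuttle factors and p97 genes, none passed in either genotype comparison. Of all genes 10.7% rose and 8.91% fell at 1 month, and 2.48% rose and 3.89% fell at 6 months. Ddi2 had the smallest p of the 9 at 1 month (0.27 ± 0.10, adjusted p = 0.0703), with a log2 fold change of -0.21 once length and GC were fitted.

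Retained introns are the readout the study was built on. The share of a member's counts on transcripts of the retained-intron class could be tested for 22 members of 4769 genes. None passed in any comparison with edgeR, against 2.89% of genes at 1 month, 0.189% at 6 months, 2.89% within 5xFAD, 0.44% within WT and 7.74% in the interaction. At an unadjusted p below 0.05 there were 2 members at 1 month, 0 at 6 months, 2 within 5xFAD, 2 within WT and 3 in the interaction, and limma on the logit of the share also called none, with 3, 1, 2, 3 and 3. The share of Psmb4 was 15.9, 24.3 and 20.3% in 5xFAD libraries at 1 month, against 16.1, 15 and 7.27% in WT libraries, and 19.7, 40.9 and 31.3% in 5xFAD libraries at 6 months, against 19.6, 26.2 and 21.3% in WT libraries. These ranges overlapped.

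Not all counts of a member came from coding transcripts. Psma3 had the smallest coding share: 40.3% of its counts over all libraries lay on Psma3-203, a retained-intron transcript, 32.0% on transcripts of the nonsense-mediated decay class, and its coding transcripts held 28.1% in 5xFAD and 26.8% in WT at 1 month and 25.3% in 5xFAD and 26.3% in WT at 6 months. Its level per length above therefore describes the gene and not the coding message. In Psmb10 50.5% of counts lay on retained-intron transcripts, in Psmb4 21.7% and in Psmd13 16.2%, with a further 21.1% of Psmd13 on the decay class. In Psmb5, Psmb7 and Psmd7, by contrast, 1 coding transcript held 99.7, 99.0 and 99.7% of counts.

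Few counts were assigned to pseudogene copies of the members. The shares below are of expected counts as assigned, and reads of identical stretches cannot be told apart. The copy Gm13835 matched Psma3 at 100% identity over 685 bases. A BLAST search found 50 pseudogenes matching 17 members, 24 of them with a count. Matches of at least 200 bases at 80% identity were kept. The copies of Psma3 held counts equal to 4.2% of its own over all libraries, those of Psma2 (14 copies) 1.03%, and those of the other 15 members at most 0.80%. The share in Psma3 was uneven: of the counts of gene and copies together, the copies held 4.2% in 5xFAD and 4.8% in WT at 1 month, and 6.88% in 5xFAD and 0.64% in WT at 6 months, where they had 52.3 to 219.4 counts in a 5xFAD library, against 6.0 to 17.6 counts in a WT library.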

How the data were processed

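Whole-retina polyadenylated RNA of 5xFAD and WT mice at 1 and 6 months was measured in 12 libraries, 3 per group, with 10928031 to 19552537 counts each. The authors deposited expected counts per gene and per transcript. Per the submitters' processing notes, Trim Galore 0.6.6, STAR 2.7.1a, RSEM 1.3.3 and DESeq2 1.32.0 were named, with the build GRCm38.p6; the order of steps and the settings are not given in the sources used here. Of 55487 gene identifiers, 55141 matched GENCODE M21, which gave symbols and lengths. No column of per-sample values was left unused (0).

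From the deposited expected counts, rounded to whole numbers, edgeR 4.0.16 (R 4.3.3) was fitted on all 12 libraries with TMM scaling, filterByExpr and a robust quasi-likelihood fit with 8 residual degrees of freedom before moderation. P-values were adjusted by Benjamini-Hochberg over 16233 genes at 0.05. SE is the absolute log2 fold change over the root of F and is approximate. CPM values are counts over the library total of the tested genes multiplied by the TMM factor of the library. TPM per length was computed from the transcript counts and annotated lengths. The retained-intron share needed a mean of at least 10 counts on each side. Sums and ratios over members were compared by two-sided exact permutation. Single values carry counting error, which weighs most on the immune subunits. Pseudogene copies were found with BLAST 2.17.0, and figures were drawn with matplotlib 3.10.9. The tests were also run on simulated data, with the outcome not reported here.

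The members and lists were chosen with earlier results of these data known. Values in every library are given for the member with the highest level per length in each role, for the 2 members with the smallest p in each role and comparison, and for all immune and tissue-restricted subunits. Of each other list, up to 4 genes with the smallest p between genotypes are named. Psme4 and Usp14 are named for their values once length and GC were fitted. Some results of the ubiquitin gene list, its counts included, are not reported here. Alternatives were DESeq2 1.42.0 size factors and Wald test, library-size scaling, no count filter, fewer gene classes, only the 6 libraries compared, a replicate block, removal of length and GC trends, each library left out in turn, omission of the 3 libraries with most ribosomal RNA, and limma 3.58.1 for the share.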

Additional observations from a re-analysis of the deposited data

Results flagged for a closer look

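The difference between 5xFAD and WT retinas was not the same at 6 months as at 1 month for 21 members, by edgeR's test of the interaction of genotype and age. The values are differences of log2 fold changes, 6 months minus 1 month. In the alpha ring they were 0.77 for Psma2, 0.74 for Psma3, 0.62 for Psma4, 0.52 for Psma5, 0.62 for Psma6 and 0.62 for Psma7. In the beta rings they were 1.17 for Psmb1, 1.01 for Psmb3, 1.11 for Psmb4, 0.92 for Psmb5 and 0.94 for Psmb7. Among the ATPases they were 0.59 for Psmc1, 0.55 for Psmc3, 0.79 for Psmc4, 0.80 for Psmc5 and 0.45 for Psmc6. In the rest of the cap they were 0.74 for Psmd4, 0.86 for Psmd13 and 0.74 for Psmd14, with 0.80 for the chaperone Psmd9. Psmd1 alone among them was negative, at -0.59. The mean transcript length behind a count differed between the groups in the same libraries, and over all genes with transcripts up to 2061 bases the median interaction was 0.47.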

How the results depend on the processing

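Falls among members at 1 month numbered 17, and 5 once the length and GC trend was removed, with or without a replicate block, of which 4 were among the 17; they numbered 10 to 18 with 1 library left out. Psmb6 had a log2 fold change of 0.001 with the trend removed, against the sign of its fall. Rises at 1 month numbered 0, and 1 with the DESeq2 Wald test, without pseudogenes, mitochondrial genes and ribosomal RNA genes, and with only the 6 libraries compared, and 0 to 1 with 1 library left out. Rises at 6 months numbered 6, and 10 with the trend removed, 2 with only the 6 libraries compared, 0 without the 3 libraries richest in ribosomal RNA, and 1 to 10 with 1 library left out, with 0 to 1 falls. Within 5xFAD rises numbered 22, and 10 with the trend removed, 9 with the replicate block and the trend removed, 11 without the ribosomal RNA-rich libraries, and 13 to 23 with 1 library left out, with 0 to 1 falls. Within WT rises numbered 1, and 2 with the trend removed and 2 with the block as well. They numbered 0 without the ribosomal RNA-rich libraries and 0 to 1 with 1 library left out. Falls within WT numbered 5, and 5 with the trend removed, though not the same 5, and 4 with the block as well. They numbered 2 to 9 with 1 library left out. In the interaction positive members numbered 20, and 13 with the trend removed, 11 with the block as well and 13 to 21 with 1 library left out, and negative ones 1, and 0 without the ribosomal RNA-rich libraries. Members with a changed retained-intron share, 0 in each comparison, numbered 0 to 1 at 1 month, 0 to 1 within WT and 0 to 2 in the interaction with 1 library left out. The cause was not tested, beyond the fewer libraries of some fits.

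With the replicate number as a block, 15 members fell at 1 month, 5 rose at 6 months, 21 rose within 5xFAD, 1 rose and 4 fell within WT, and 19 were positive and 1 negative in the interaction. Deviations of same-numbered libraries correlated at -0.085 to 0.062, which gave no sign of pairing. The labels do not say whether same-numbered libraries were handled together. Depth limits the immune subunits, with 107 counts of Psmb9 in all.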
